A study of Mus musculus with 15 samples.

Results

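The unfolded protein response and the integrated stress response were followed across 38 member genes, chosen as named components of these pathways in 6 role groups, out of 40402 genes in the count table. These members, and the wider pathway lists given below, were chosen with earlier results of these data known. Their shares set against all genes thus do not come from lists fixed beforehand. The members comprised 3 sensors, 5 transcription factors, 7 targets and feedback genes of ATF4 and CHOP, 6 enzymes of serine, one-carbon and asparagine synthesis, 14 chaperones and folding enzymes, and 3 genes of ER-associated degradation. All 38 members reached a CPM (read counts scaled to a common library size) of 1 in at least 1 library and were kept, among 17594 genes kept in all.

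RNA was sequenced from 4T1 cells, a single mammary carcinoma line of BALB/c mice used as a model of triple-negative breast cancer. The 5 conditions were untreated cells, cells given blackberry extract (BLA) or blueberry extract (BLU), and cells given gold nanoparticles made with the blackberry extract (BLA-A) or the blueberry extract (BLU-A), which the labels spell BLAA and BLUA. Treatment began 24 h after seeding. Each condition has 3 count columns. A read summary in the study's supplement gives 1 raw read total per condition and 3 read subsets, which together exceed that total. Other statements go the other way. Another page of the supplement counts the 15 files as libraries, and the paper's general statement on replicates speaks of biological ones. The labels also give each column its own batch date. In the counts, sampling noise exceeded the differences among the columns of each condition (chi-square per degree of freedom 0.0951 to 0.475). The columns were therefore averaged and counted as 1 library, so a comparison of 2 conditions is a comparison of 2 libraries with no replicate check and no p-value.

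The libraries held 25613711 to 26956308 counts, which places the limit of 3 counts at 0.111 to 0.117 CPM. Of the epithelial and 4T1 markers, Krt8, Krt18, Epcam, Cdh1, Vim and Spp1 lay between 35.9 and 4050 CPM in all 5 libraries, Krt14 was below 1 CPM and Krt5 was at 0. The summed level of the 4 leukocyte markers was 8.02 to 9.22 CPM, most of it Cd68 (7.06 to 8.9 CPM), with Ptprc at 0.198 to 1.55 CPM and Lyz2 at 0. The 3 endothelial markers summed to 1.59 to 4.17 CPM, the 2 adipocyte markers to 0.687 CPM or less, and the fibroblast sum of 88.6 to 103 CPM was nearly all Pdgfra. The nuclear lncRNA Gm26917 took 4.55% of counts in BLU and 7.84% in BLA-A, and its part in the member values was not tested. The labels give each of the 15 columns its own batch date, so batch and condition cannot be told apart.

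As background, misfolded protein in the endoplasmic reticulum (ER) releases the sensors PERK, IRE1 and ATF6 from the chaperone BiP. PERK phosphorylates eIF2-alpha, which lowers general translation and favours translation of ATF4, IRE1 splices Xbp1 mRNA, and ATF6 is cleaved to a transcription factor. ATF4 and its target CHOP drive amino acid synthesis, redox and feedback genes, whereas XBP1 and ATF6 drive chaperones and degradation factors. Other eIF2-alpha kinases feed the same ATF4 branch from amino acid shortage, heme shortage and viral RNA. These data hold gene counts with introns included, so they show neither Xbp1 splicing nor ATF4 translation.

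The sequences that mark these branches lie in the promoters. RefSeq promoters (GRCm38.p6, 250 bases before to 50 bases after the start) were found for 34 of the 38 members; Atf6, Ppp1r15b, Manf and Hyou1 were not matched. The ER stress element (ERSE), read as CCAAT and CCACG separated by 9 bases on either strand, was present in 7 of the 12 chaperone promoters against 0.119% of all 32851 promoters. The 8 sites are shown because they belong to the group that differed most between the libraries. Each is read along the strand of the motif, with the named letters in capitals and the spacer in lower case.
Hspa5: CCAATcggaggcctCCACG
Hsp90b1, upstream site: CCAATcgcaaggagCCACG
Hsp90b1, downstream site: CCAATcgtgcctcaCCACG
Pdia6: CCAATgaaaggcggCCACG
Calr: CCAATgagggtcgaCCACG
Canx: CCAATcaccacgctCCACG
Dnajc3: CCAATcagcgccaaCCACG
Creld2: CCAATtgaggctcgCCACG

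The shorter ERSE-II, ATTGG and CCACG separated by 1 base, was found in Dnajb11 and Herpud1 and in 0.0365% of all promoters. The C/EBP-ATF response element that ATF4 binds, searched as TGATGNAA on both strands, was found in Nupr1, Trib3, Chac1, Vldlr, Asns and Herpud1 and in 3.97% of all promoters. The XBP1 element TGACGTGG was in none of the 34 members and in 0.676% of all promoters. A match gives letters in a window and not a bound site.

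Promoters of 4 members are printed in full, Hspa5 and Calr as chaperones with an ERSE and opposite values in BLA-A, and Chac1 and Cebpb as members of the ATF4 branch with high values there. Capitals mark the ERSE in Hspa5 and Calr and the C/EBP-ATF element in Chac1, which in Calr and Chac1 runs on the other strand of the window, and Cebpb held none of the 4 motifs. The windows are chr2:34771840-34772139 on the plus strand for Hspa5, chr8:84846882-84847181 on the minus strand for Calr, chr2:119350992-119351291 on the plus strand for Chac1, and chr2:167688665-167688964 on the plus strand for Cebpb.
Hspa5: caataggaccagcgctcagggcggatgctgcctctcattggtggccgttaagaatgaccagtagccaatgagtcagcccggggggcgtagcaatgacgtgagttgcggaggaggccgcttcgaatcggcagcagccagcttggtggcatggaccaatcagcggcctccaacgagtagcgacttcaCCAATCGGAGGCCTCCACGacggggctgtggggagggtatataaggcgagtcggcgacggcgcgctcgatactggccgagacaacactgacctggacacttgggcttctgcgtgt
Calr: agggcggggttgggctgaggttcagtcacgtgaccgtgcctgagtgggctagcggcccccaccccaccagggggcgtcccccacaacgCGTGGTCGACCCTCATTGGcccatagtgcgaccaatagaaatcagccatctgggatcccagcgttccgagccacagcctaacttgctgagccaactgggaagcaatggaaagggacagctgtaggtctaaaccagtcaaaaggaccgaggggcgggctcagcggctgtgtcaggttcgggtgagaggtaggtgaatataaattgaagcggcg
Chac1: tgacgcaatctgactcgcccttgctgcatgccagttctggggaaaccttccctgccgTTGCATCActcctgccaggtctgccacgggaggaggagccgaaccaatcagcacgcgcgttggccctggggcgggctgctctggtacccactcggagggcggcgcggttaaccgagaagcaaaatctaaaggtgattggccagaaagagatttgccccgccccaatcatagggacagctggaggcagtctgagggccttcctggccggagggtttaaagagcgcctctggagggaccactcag
Cebpb: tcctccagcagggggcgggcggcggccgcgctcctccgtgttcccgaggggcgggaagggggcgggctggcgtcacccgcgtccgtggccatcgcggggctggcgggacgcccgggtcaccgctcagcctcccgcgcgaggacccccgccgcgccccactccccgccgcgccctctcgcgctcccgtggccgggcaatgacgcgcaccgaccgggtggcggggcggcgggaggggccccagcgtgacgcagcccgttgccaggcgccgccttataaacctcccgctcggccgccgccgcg

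Across the members, the values of the BLA-A library were the highest of the 5 libraries for 25 of 38 members (65.8%), against 29.4% of all genes kept, and BLU held the lowest value for 22 members (57.9%), against 14.3% of all genes. Fold changes are differences of log2(CPM + 0.5) after TMM scaling, and a member is counted past 2-fold where that difference is over 1 or under -1. The chaperones and the ATF4-CHOP targets held most of the members past 2-fold in BLA-A, while the synthesis enzymes downstream of ATF4 held none. The 4 extract and nanoparticle comparisons with untreated cells all use the same untreated library.

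**Figure D1:**
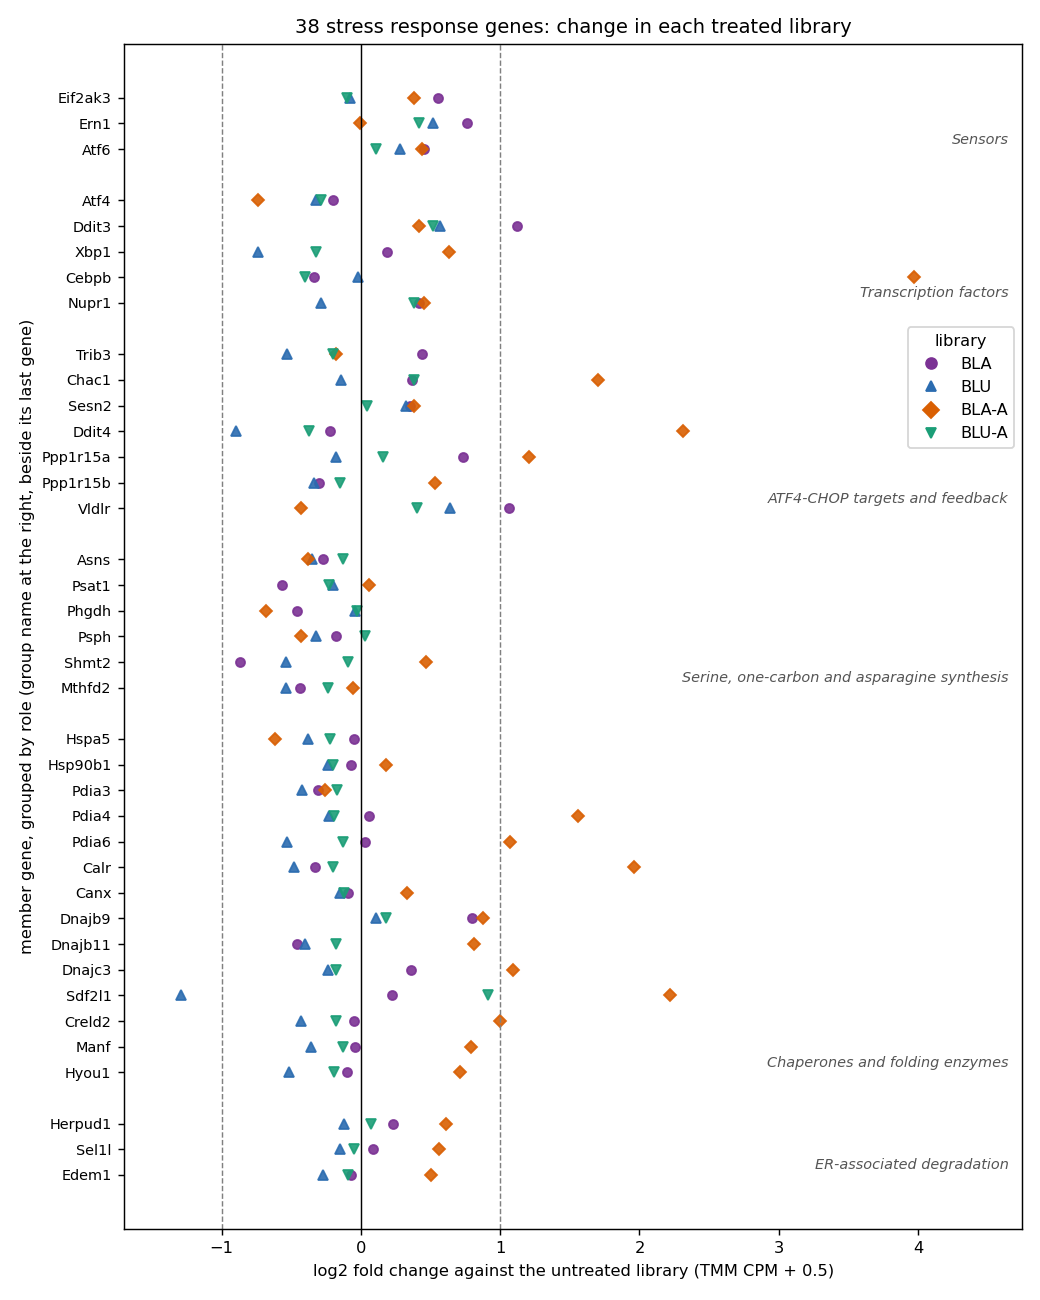
Each row is 1 member gene and each symbol its log2 fold change in 1 treated library against the untreated library, with dashed lines at 2-fold. The BLA-A symbols of Cebpb (3.97), Ddit4 (2.31), Sdf2l1 (2.22) and Calr (1.96) lie farthest to the right, and the lowest symbol is Sdf2l1 in BLU (-1.29).

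Counts of members were read against all genes kept. In BLA, 2 of 38 members were past 2-fold higher (5.26%) and none lower, against 7.91% of all genes higher and 8.51% lower. In BLU, none was higher and 1 was lower (2.63%), against 5.64% higher and 4.62% lower. In BLU-A, none was past 2-fold in either direction, against 3.39% and 4.49% of all genes. Among the 9770 genes that averaged at least 10 CPM, the shares were 3.61% higher and 1.6% lower in BLA, 1.98% and 0.409% in BLU, and 0.757% and 0.102% in BLU-A. The 2 members in BLA (Ddit3 and Vldlr) and the 1 in BLU (Sdf2l1) were thus below the shares of all genes. Vldlr and Sdf2l1 averaged under 10 CPM, so only Ddit3 belongs to the class behind the well expressed shares.

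In BLA-A, 10 of 38 members (26.3%) were past 2-fold higher and none lower, against 8.55% of all genes higher and 12.3% lower, and 7.86% and 4.71% of the well expressed genes. The median log2 fold change of the 38 members was 0.49 in BLA-A, -0.04 with BLA, -0.28 with BLU and -0.13 with BLU-A, with medians of all genes of -0.01 in BLA, BLU and BLA-A and 0.00 with BLU-A. Low genes swell the share of all genes past 2-fold, and the members were mostly well expressed, so sizes were also compared with the well expressed genes. Regardless of sign, the median log2 fold change in BLA-A was 0.59 for members and 0.41 for those genes, and in BLU 0.33 and 0.24. In BLA it was 0.32 for both, and in BLU-A 0.18 and 0.16.

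**Figure D2:**
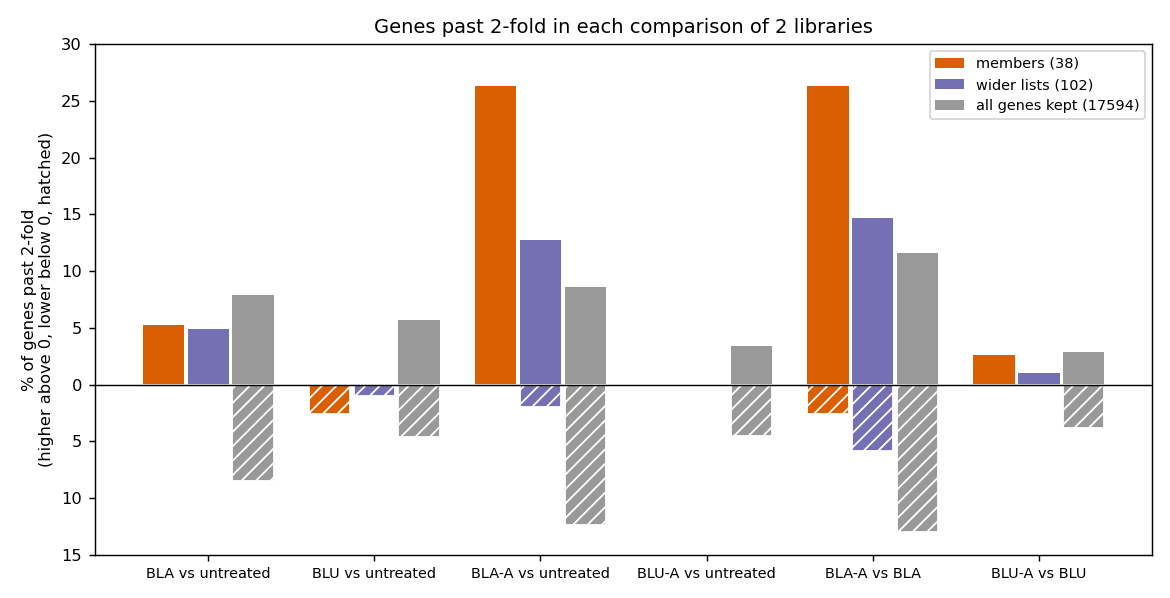
Bars give the percentage of genes past 2-fold in each comparison of 2 libraries, higher above the zero line and lower below it (hatched), for the members, the wider pathway lists and all genes kept. Members reached 26.3% higher in BLA-A against untreated cells, where all genes were at 8.55%.

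Scaling moved these medians in BLA-A. By total counts alone, the median of all genes was -0.18 and that of the members 0.29, against -0.01 and 0.49 under TMM. Psat1 and Hsp90b1 turned from above to below untreated cells by total counts, and Ern1 and Mthfd2 turned from below to above with DESeq2 size factors.

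The 3 sensors did not pass 2-fold in any library. Ern1 (IRE1), the kinase and endonuclease that splices Xbp1, was at 100 CPM in untreated cells, 171 with BLA, 144 with BLU, 99.4 with BLA-A and 134 with BLU-A. It was thus higher in both extracts and in BLU-A, with log2 fold changes of 0.76, 0.52 and 0.42, and level in BLA-A. Eif2ak3 (PERK) was at 29.5, 43.4, 27.9, 38.6 and 27.5 CPM in the same order, higher in BLA and BLA-A only. Atf6 was at 222, 303, 269, 302 and 239 CPM, lowest in untreated cells.

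Ern1 and Atf6 span 93.2 and 163 kb of genome, among the longest members. Long genes as a class were higher in BLA and BLU, with a median log2 fold change of 0.47 and 0.44 for genes over 100 kb against -0.39 and -0.31 for genes of up to 6 kb. With the trend over gene span and GC content removed, Ern1 was at 0.45 in BLA and 0.26 in BLU, and Atf6 at -0.03 and -0.16.

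Among the transcription factors, Atf4 was below and Ddit3 above untreated cells in all 4 treated libraries as measured. Atf4 was at 294 CPM in untreated cells, 256 with BLA, 236 with BLU, 177 with BLA-A and 241 with BLU-A, lowest in BLA-A. Among the ATF4-CHOP targets and synthesis enzymes, BLA-A was highest for Chac1, Ddit4, Ppp1r15a, Ppp1r15b and Shmt2. By a small margin it was also highest for Sesn2 (12.7 CPM, 12.4 with BLA) and Psat1 (162 CPM, 156 in untreated cells). It was lowest for Phgdh, Psph and Vldlr, by a small margin for Asns (74.8 CPM, 76.3 with BLU), and neither for Trib3 and Mthfd2. The log2 fold change of Atf4 in BLA-A was -0.74 (95% interval -0.79 to -0.68, exact binomial, which covers counting error only). This and the intervals that follow are of the ratio of scaled counts with no pseudocount, so for low genes they are not centred on the log2 fold change, which the pseudocount draws towards 0. Ddit3, which encodes CHOP, was at 14.1, 31.2, 21.2, 19.1 and 20.4 CPM, highest in BLA with a log2 fold change of 1.12 (0.97 to 1.32). The 3 other treated libraries lay between 0.42 and 0.57 for Ddit3. With the GC and span trend removed, Atf4 was at 0.23 in BLA, -0.00 in BLU and -0.98 in BLA-A, and Ddit3 at 1.41, 0.81 and 0.07, so in BLA both were above untreated cells.

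Cebpb, which encodes the C/EBP-beta transcription factor and lies in a single exon at chr2:167530835-167532338 on the plus strand (GRCm39), gave the largest difference of any member. It was at 14.5 CPM in untreated cells, 11.4 with BLA, 14.3 with BLU, 235 with BLA-A and 10.9 with BLU-A. The 4 other libraries lay within 10.9 to 14.5 CPM, and BLA-A was 15.7-fold above untreated cells and 19.8-fold above BLA. In counts, this was 5436 in BLA-A and 288 to 393 in the other libraries. Its canonical transcript has the highest GC content of the members, 67.2%, and its log2 fold change in BLA-A was 3.97 as measured and 3.15 with the GC and span trend removed.

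Xbp1, the substrate of IRE1, was at 64.8, 73.9, 38.7, 100 and 51.8 CPM in the order untreated, BLA, BLU, BLA-A and BLU-A. It was highest in BLA-A (log2 fold change 0.63) and lowest in BLU (-0.74). Nupr1, a stress-induced chromatin-associated protein, was at 25.1, 33.8, 20.5, 34.5 and 32.8 CPM. A lncRNA on the opposite strand, Gm39087, covers the whole of Nupr1 and was listed at nearly the same level, 21.9 to 35.0 CPM, so reads of the pair cannot be told apart.

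**Figure D3:**
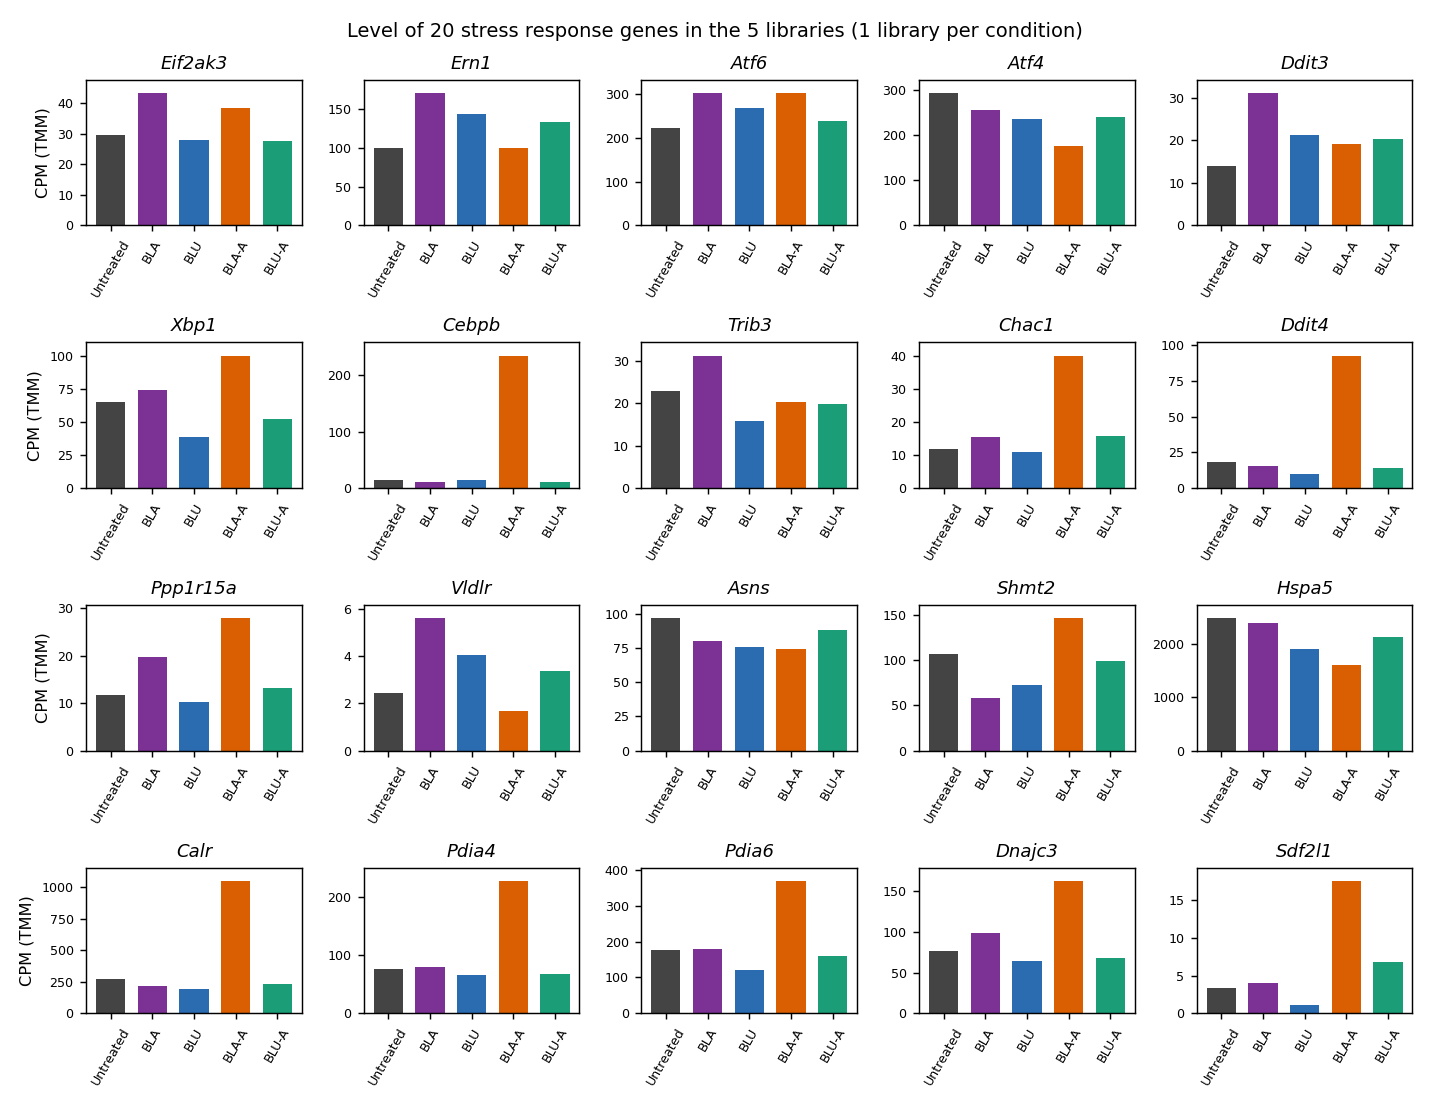
Each panel gives the TMM-scaled CPM of 1 gene in the 5 libraries, with 1 bar per library and no error bar because each condition was counted as 1 library. Cebpb, Ddit4, Chac1, Calr, Pdia4, Pdia6 and Sdf2l1 are highest in BLA-A, Ddit3 and Vldlr are highest in BLA, and Atf4 and Hspa5 are lowest in BLA-A.

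Of the 7 ATF4-CHOP targets, 3 were past 2-fold higher in BLA-A (42.9%, against 8.55% of all genes). Ddit4 (REDD1), an inhibitor of mTORC1, was at 18.3 CPM in untreated cells, 15.6 with BLA, 9.6 with BLU, 92.7 with BLA-A and 14.1 with BLU-A, which is 4.95-fold in BLA-A. Chac1, which degrades glutathione and carries the element printed above, was at 11.9, 15.5, 10.8, 40 and 15.7 CPM, 3.25-fold in BLA-A. Ppp1r15a (GADD34), the phosphatase subunit that reverses eIF2-alpha phosphorylation, was at 11.7, 19.8, 10.3, 27.9 and 13.2 CPM, 2.32-fold in BLA-A and 1.66-fold in BLA. All 3 were highest in BLA-A and lowest in BLU.

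The remaining targets gave smaller values in BLA-A. Trib3, a pseudokinase that inhibits ATF4 and carries the same element, was at 22.8, 31.2, 15.7, 20.2 and 19.8 CPM, highest in BLA. Its log2 fold change in BLA-A was -0.18 (counts of 608 and 466). Vldlr, a lipoprotein receptor, was low at 2.44, 5.61, 4.07, 1.69 and 3.39 CPM, or 39 to 153 counts, and was 2.08-fold in BLA. Ppp1r15b, the constitutive counterpart of Ppp1r15a, had a log2 fold change of 0.53 in BLA-A and -0.34 to -0.15 in the 3 other treated libraries. Sesn2, a stress sensor upstream of mTORC1, lay between 0.04 and 0.38 in all 4.

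The enzymes of serine, one-carbon and asparagine synthesis are driven by ATF4 in amino acid shortage. All 6 were below untreated cells in BLA and all 6 in BLU, where 49% and 49.4% of all genes were above. Their median log2 fold change was -0.45 with BLA, -0.34 with BLU, -0.22 with BLA-A and -0.11 with BLU-A, against -0.01, -0.01, -0.01 and 0.00 over all genes. None passed 2-fold against untreated cells. Asns, asparagine synthetase, was at 97.2 CPM in untreated cells, 80.5 with BLA, 76.3 with BLU, 74.8 with BLA-A and 88.6 with BLU-A. It was highest in untreated cells and lowest in BLA-A.

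Shmt2, the mitochondrial serine hydroxymethyltransferase, separated the blackberry preparations, at 106, 57.6, 72.5, 146 and 99 CPM. Its log2 fold change was -0.87 (-0.97 to -0.79) in BLA and 0.47 (0.40 to 0.54) in BLA-A. Phgdh, the first enzyme of serine synthesis, was lowest in BLA-A at 42.9 CPM against 68.8 in untreated cells. With the GC and span trend removed, Shmt2 was at -0.57 and 0.07 and Phgdh at -1.04 in BLA-A, past 2-fold only under that adjustment. In BLA-A the group had its lowest value in Phgdh (-0.68) and its highest in Shmt2, in BLU in Shmt2 (-0.54) and Phgdh (-0.04), in BLA in Shmt2 and Psph (-0.18), and in BLU-A in Mthfd2 (-0.24) and Psph (0.03).

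The 14 chaperones and folding enzymes were the group with most members past 2-fold in BLA-A, 6 of 14. That is 42.9% higher, against 8.55% of all genes. The median log2 fold change of the 14 was 0.84 in BLA-A, -0.05 with BLA, -0.39 with BLU and -0.18 with BLU-A. Medians of all genes were -0.01 to 0.00. In BLA-A 12 of 14 were above untreated cells, in BLU 13 of 14 were below and in BLU-A 12 of 14 were below. Of all genes, 49.2% in BLA-A, 49.4% in BLU and 50% in BLU-A were above.

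Calr, the lectin chaperone calreticulin that also buffers ER calcium, lies at chr8:85568479-85573667 on the minus strand (GRCm39). It was at 270 CPM in untreated cells, 215 with BLA, 194 with BLU, 1050 with BLA-A and 235 with BLU-A. The BLA-A value was 3.88-fold above untreated cells, and the log2 fold change of 1.96 had an interval of 1.92 to 2.00. Its membrane-bound homologue Canx (calnexin) was at 674, 633, 607, 850 and 620 CPM, a log2 fold change of 0.33 in BLA-A.

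Hspa5, which encodes BiP, the Hsp70 of the ER and a gene commonly read as a marker of the unfolded protein response, went the other way. It was at 2490 CPM in untreated cells, 2400 with BLA, 1910 with BLU, 1610 with BLA-A and 2140 with BLU-A, so all 4 treated libraries were below untreated cells and BLA-A was lowest (log2 fold change -0.62, interval -0.64 to -0.60). The BLA value was only -0.05, and 0.18 with the GC and span trend removed, while BLA-A was at -0.53 under that adjustment. Calr stood at 10.9% of the Hspa5 level in untreated cells, 8.98% with BLA, 10.1% with BLU, 65.2% with BLA-A and 11% with BLU-A, a ratio within a library that no scaling between libraries moves. Hspa5 made up 42.7% of the summed CPM of the 14 genes in untreated cells and 24.1% in BLA-A. The other 13 summed to 3340 CPM in untreated cells and 5080 in BLA-A.

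Hspa5 overlaps Rabepk on the opposite strand over 19.4% of its span. By total counts, Rabepk was listed at 2411 CPM beside 2565 CPM for Hspa5 in untreated cells, and at 1307 beside 1458 in BLA-A. The mates of each pair were merged before counting, so how many reads Hspa5 and Rabepk share cannot be told from these files. The overlap was measured on GENCODE canonical transcripts, whereas the study counted RefSeq genes, whose limits can differ. By GENCODE canonical transcripts, Calr, Cebpb, Ddit4, Chac1, Ppp1r15a, Sdf2l1, Pdia4, Dnajc3 and Creld2 have no such partner in the table. Over the 26 members without one, the median log2 fold change in BLA-A was 0.59. Of these, 9 were past 2-fold higher (34.6%, against 8.55% of all genes kept).

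Sdf2l1, a small cofactor of BiP with a low level, was at 3.39 CPM in untreated cells, 4.03 with BLA, 1.09 with BLU, 17.6 with BLA-A and 6.81 with BLU-A. These are 90, 110, 30, 407 and 180 counts. It was the only member past 2-fold in BLU, at -1.29, or -1.64 with no pseudocount (interval -2.28 to -1.02), and was 4.64-fold in BLA-A. BLU-A was 1.88-fold above untreated cells.

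The disulfide isomerases differed among themselves in BLA-A. Pdia4 was at 76.6, 80.1, 65, 228 and 67.3 CPM, 2.96-fold in BLA-A and within 65 to 80.1 CPM elsewhere. Pdia6 was at 176, 179, 122, 371 and 161 CPM, 2.10-fold in BLA-A. Pdia3, which works with Calr and Canx on glycoproteins, was at 716, 576, 535, 597 and 635 CPM, highest in untreated cells.

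The DnaJ cochaperones were all higher in BLA-A than in untreated cells. Dnajc3 (p58IPK), an inhibitor of PERK, was at 76.5, 98.2, 64.8, 163 and 67.4 CPM, a log2 fold change of 1.09 in BLA-A. Dnajb9, an IRE1 target that restrains IRE1, was at 18, 31.6, 19.4, 33.4 and 20.5 CPM, with 0.80 in BLA and 0.88 in BLA-A. Dnajb11 was at 0.81 in BLA-A and -0.46 in BLA.

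Creld2, an ER-resident stress protein, was at the 2-fold limit in BLA-A, at 16.7 CPM in untreated cells and 34.1 in BLA-A (interval of the log2 fold change 0.85 to 1.19). The secreted ER factor Manf (0.79), the Hsp110-type chaperone Hyou1 (0.71) and Hsp90b1, which encodes GRP94 (0.18), were below 2-fold there. Calls at the limit depended on scaling. By total counts alone, and with genes required to reach 1 CPM in every library, Pdia6, Dnajc3 and Creld2 were no longer past 2-fold in BLA-A and the other 7 members were.

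The BLA-A values of chaperones with and without an ERSE overlapped. The 7 with an ERSE had a median log2 fold change of 1.00 with a range of -0.62 (Hspa5) to 1.96 (Calr), and the 5 with a promoter and no ERSE had a median of 0.88 with a range of -0.26 (Pdia3) to 2.22 (Sdf2l1). Members with the C/EBP-ATF element had a median of 0.14 in BLA-A and 0.39 in BLA, and the 28 with a promoter and no such element had 0.49 and -0.06.

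The 3 genes of ER-associated degradation lay close together. Herpud1, a membrane adaptor of the degradation complex, was at 40, 47.1, 36.7, 61.4 and 42 CPM, Sel1l, a subunit of the Hrd1 ligase complex, at 90.3, 96.1, 81.1, 134 and 87.4, and Edem1, a mannosidase-like lectin, at 77, 73.2, 63.8, 109 and 72.4. Each was highest in BLA-A and lowest in BLU. The log2 fold changes in BLA-A were 0.61, 0.56 and 0.50 and those in BLU were -0.12, -0.15 and -0.27.

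Per kilobase of the canonical spliced transcript, Hspa5 was the most abundant member in 4 libraries, with 502 CPM per kb in untreated cells, followed by Hsp90b1 (309), Pdia3 (194), Canx (177), Atf4 (169) and Calr (118). In BLA-A Calr reached 460 CPM per kb and stood above Hsp90b1 (350) and Hspa5 (326). The sensors lay far lower, from 6.48 (Eif2ak3) to 29.4 (Atf6) in untreated cells. Introns were counted too, so these levels are approximate, and more so for long genes.

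The wider pathway lists, 102 further genes kept of 108 listed, gave 13 genes past 2-fold higher and 2 lower in BLA-A, with a median log2 fold change of 0.33. That is 12.7% higher and 1.96% lower, against 8.55% and 12.3% of all genes. In BLA 5 were higher (4.9%, against 7.91% of all genes) and none lower, in BLU none was higher and 1 lower (Derl3, at 0.952 CPM in untreated cells and 0.145 in BLU), and in BLU-A none was past 2-fold. Among the genes of these lists with at least 10 CPM in a library, to which the values that follow are limited, the highest in BLA-A were Syvn1 (2.28), Atf5 (1.95) and Atf3 (1.74), and the lowest were Hspd1 (-1.26), Sec61g (-1.04) and Selenos (-0.98). Syvn1 encodes HRD1, the ubiquitin ligase that works with Sel1l, and was at 21.6 CPM in untreated cells, 29.2 with BLA, 25 with BLU, 107 with BLA-A and 23.4 with BLU-A.

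Atf3, a transcription factor downstream of ATF4, was above untreated cells in all 4 treated libraries, at 43.2, 101, 64.5, 146 and 59.4 CPM in the same order. In BLA the highest of these genes were Gpt2 (1.35), an alanine aminotransferase, Atf3 (1.21) and the ER oxidase Ero1a (1.08), and the lowest were Hspe1 (-0.97), Slc1a5 (-0.96) and Hspd1 (-0.83). In BLU the highest of them were Atf3 (0.57), Creb3l2 (0.57) and Oma1 (0.54), and the lowest Ssr4 (-0.64), Aars1 (-0.63) and Pck2 (-0.61). In BLU-A their range ran from Selenok (-0.65), Pck2 (-0.48) and Aars1 (-0.38) to Wfs1 (0.51), Atf3 (0.45) and Creb3l2 (0.44).

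By list and at any level, 4 of 20 other ATF4 targets were past 2-fold higher in BLA and 4 in BLA-A (20% each), with none lower. All genes were at 7.91% higher in BLA. Among the BLA calls, Aldh1l2 (2.54 CPM in untreated cells and 6.03 in BLA) and Pycr1 (4.72 and 9.98) were low. None of 12 aminoacyl-tRNA synthetases under ATF4 was past 2-fold in any treated library. In BLA-A, where 8.55% of all genes were past 2-fold higher, 3 of 13 degradation genes, 2 of 12 ER import genes and 2 of 7 stress transducers were. The 1 of 17 folding and glycosylation genes (5.88%) and 1 of 9 genes of the eIF2 kinases and eIF2B (11.1%) lay below and near that share. Hspd1, the mitochondrial chaperonin, was the single mitochondrial stress gene past 2-fold there, at 622 CPM in untreated cells and 260 in BLA-A.

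Each nanoparticle preparation was then set against the extract it was made with. In BLA-A against BLA, 10 members were past 2-fold higher and 1 lower, against 11.6% of all genes higher and 13% lower. Cebpb (4.30), Ddit4 (2.53), Calr (2.28) and Sdf2l1 (2.00) were the highest, and Vldlr was the lower one at -1.48, or -1.74 with no pseudocount (interval -2.29 to -1.22). The other 6 higher ones were Pdia4 (1.5), Shmt2 (1.34), Chac1 (1.33), Dnajb11 (1.26), Creld2 (1.06) and Pdia6 (1.05).

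In BLU-A against BLU, Sdf2l1 was the single member past 2-fold, 4.6-fold higher on the pseudocount scale with 180 against 30 counts, where 2.89% of all genes were higher and 3.8% lower. All 14 chaperones were above BLU, by a median of 0.23 with a lowest value of 0.03 (Canx), while the median of all genes was -0.02. With the GC and span trend removed, 13 of the 14 were above BLU and the median was 0.09. Of all genes kept, 75 (0.426%) were over 2-fold higher in both pairs, and 1 of them was a member, Sdf2l1. Cebpb was 19.8-fold higher in the blackberry pair and at 0.769-fold in the blueberry pair.

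**Figure D4:**
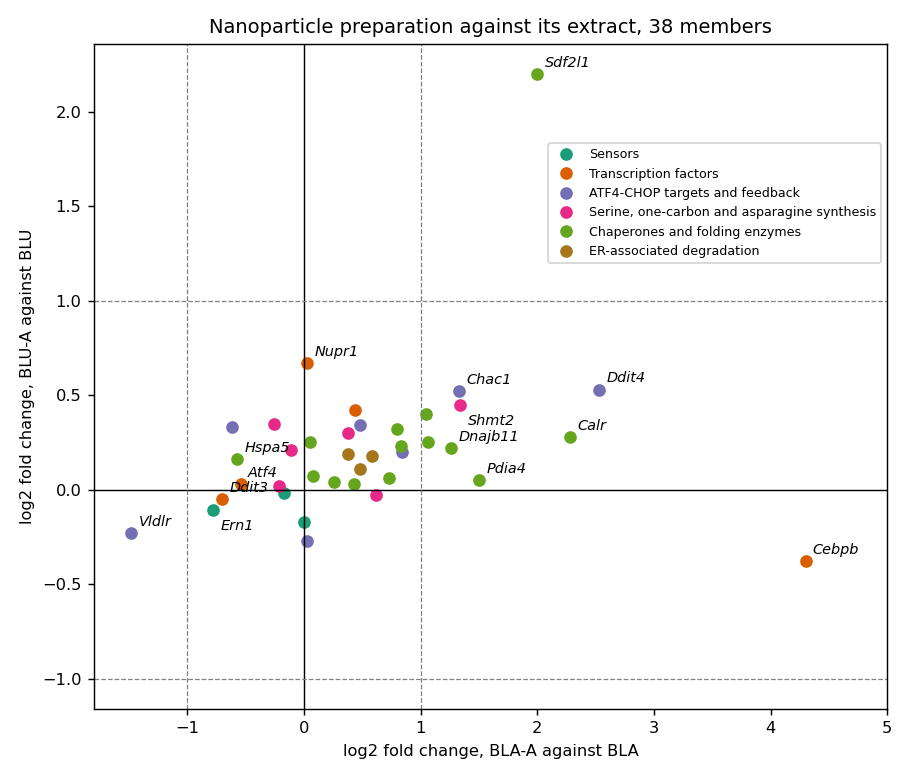
Each point is 1 member, with its log2 fold change in BLA-A against BLA on the x axis and in BLU-A against BLU on the y axis, coloured by role, with dashed lines at 2-fold. Sdf2l1 lies past 2-fold on both axes (2.00 and 2.20), and Cebpb lies farthest to the right (4.30) and below 0 on the y axis (-0.38).

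A test over the crossed design, both nanoparticle libraries against both extract libraries with the berry as a term, had 1 residual degree of freedom. By edgeR's quasi-likelihood test with Benjamini-Hochberg adjustment, no member had an adjusted p under 0.05, and 2 of 17590 genes did (0.0114%), both higher with nanoparticles. At an unadjusted p under 0.05 there were 9 members, all higher with nanoparticles, and 1085 genes (6.17%), whose directions are not given. Apart from Sdf2l1, these members differed more in the blackberry pair, with log2 fold changes of 0.80 (Hyou1) to 2.53 (Ddit4) against BLA. In BLU-A against BLU, the same members lay between 0.05 (Pdia4) and 0.53 (Ddit4). Over 9510 genes, log2 fold changes fell with log2 gene span in both pairs (Pearson correlation -0.37 and -0.35). The part of that trend in these calls was not tested. DESeq2's Wald test called 1 member, Sdf2l1, among 22 genes.

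Sdf2l1 had the smallest p of the members in that edgeR test, 4e-04 unadjusted and 0.586 adjusted, with a log2 fold change of 2.43 (SE 0.48), and was higher in both pairs. The next were Ddit4 at 1.63 (SE 0.49), Calr at 1.34 (SE 0.44), Shmt2 at 0.96 (SE 0.32), Pdia6 at 0.78 (SE 0.29) and Chac1 at 1.01 (SE 0.38), each with an edgeR adjusted p of 0.775. Dnajb11, Pdia4 and Hyou1 made up the 9. The call depended on scaling and filter: by total counts alone, and with no filter on low counts, Cebpb, Ddit4, Calr and Sdf2l1 passed, among 114 of 17590 genes (0.648%) and 214 of 28706 genes (0.745%). With genes required to reach 1 CPM in every library, no member and no gene of 13253 passed, and 6 members were under 0.05 unadjusted.

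The 4 treated libraries were also tested together against the untreated library, with the spread taken from the differences among treatments. By edgeR's quasi-likelihood test, no member had an adjusted or an unadjusted p under 0.05, and DESeq2 called none. Among all 17594 genes, 4 passed after Benjamini-Hochberg adjustment (0.0227%), all lower, and 478 (2.72%) were under 0.05 unadjusted. The smallest member p in the edgeR test was that of Ddit3, 0.112 unadjusted and 1 adjusted, with a log2 fold change of 0.70 (SE 0.39).

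Directions in that comparison were counted without a test, and the share of all genes with such agreement is not given. All 4 directions of a gene rest on the same untreated library. Atf6, Ddit3, Sesn2 and Dnajb9 were above the untreated library in 4 of 4 treated libraries. Atf4, Asns, Phgdh, Mthfd2, Hspa5 and Pdia3 were below it in 4 of 4. With the GC and span trend removed, this held for Ddit3, Dnajb9, Asns, Phgdh, Mthfd2 and Pdia3. Atf6 was then below untreated cells in 3 of 4 (-0.03, -0.16 and -0.15, with 0.35 in BLA-A), Sesn2 was at -0.05 in BLA-A, and Atf4 and Hspa5 were at 0.23 and 0.18 in BLA. Mthfd2 turned above untreated cells in BLA-A with DESeq2 size factors.

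A pair of gene properties moved with the fold changes across the table. Among 9510 genes with a mean of at least 10 CPM, the median log2 fold change in BLA-A was -0.12 for transcripts of up to 42% GC and 0.50 for those over 58%. In BLA it was -0.39 for genes spanning up to 6 kb and 0.47 for those over 100 kb. The nuclear RNAs Malat1 and Neat1 were at 1670 and 200 CPM in untreated cells and at 3750 and 674 in BLA, and their part in these values was not tested.

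**Figure D5:**
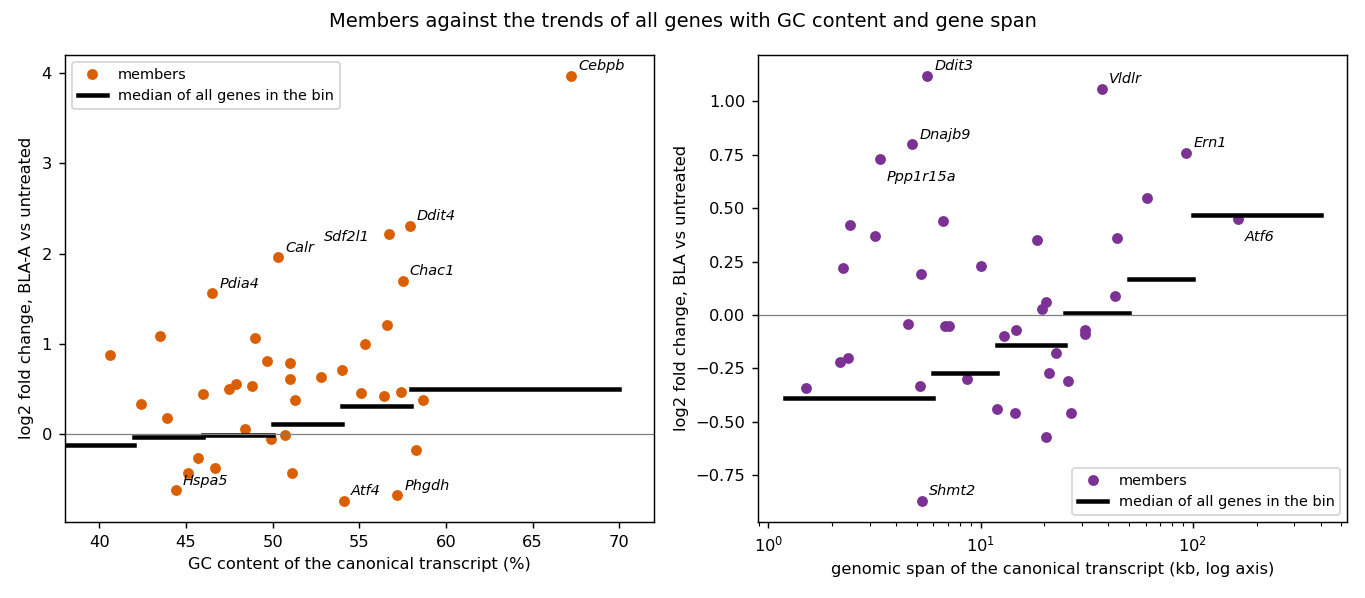
The left panel plots the log2 fold change of each member in BLA-A against the GC content of its canonical transcript, and the right panel the log2 fold change in BLA against its genomic span on a log axis, with black bars for the median of all genes in a bin. Cebpb lies at 67.2% GC, and Calr (50.3%) and Pdia4 (46.5%) lie far above the bar of their bins.

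With a smooth trend on GC content and span removed, 9 members were past 2-fold higher in BLA-A and 1 lower. The adjusted values were not read for all genes, so no share of all genes stands beside the counts of this paragraph. Cebpb (3.15), Ddit4 (1.88), Calr (1.87), Sdf2l1 (1.85), Pdia4 (1.64), Chac1 (1.30), Dnajc3 (1.15) and Pdia6 (1.07) were among the higher ones in both versions, Dnajb9 (1.09) was gained, and Ppp1r15a (0.86) and Creld2 (0.70) were lost. In BLA-A against BLA the split of 10 higher and 1 lower became 6 higher and 4 lower, the lower ones being Vldlr (-1.46), Ddit3 (-1.41), Trib3 (-1.38) and Atf4 (-1.28). In BLA 4 members were then past 2-fold higher, Ddit3 (1.41), Ppp1r15a (1.11), Dnajb9 (1.02) and Vldlr (1.01). The median of the members in BLA turned from -0.04 to 0.19, and that of the chaperones from -0.05 to 0.14.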

How the data were processed

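RNA of 4T1 cells was depleted of ribosomal RNA and sequenced, and the authors aligned reads to GRCm39 and deposited raw counts per gene; per the study's supplement, both mates were merged into 1 single-end file, introns were counted and the counter was set to the forward strand. The labels name DESeq and DESeq2 1.36.0. Tables of the authors' own comparisons (fold changes, p-values and gene set results) were not used. The 15 count columns were averaged to 5 libraries. Genes reaching 1 CPM in at least 1 library were kept, and log2 fold changes were taken on TMM-scaled CPM with a pseudocount of 0.5. Same-numbered columns did not deviate together (mean correlation -0.00134 over 30 pairs). Tests used edgeR 4.0.16 (quasi-likelihood) in R 4.3.3 and DESeq2 1.42.0 as an alternative, with an adjusted p threshold of 0.05. The scripts were run on simulated counts with a smaller spread than these data, so that run does not show the power of the tests here. Intervals are exact binomial (95%) and cover counting error only. The p-values measure the spread between these libraries of 1 cell line. Transcript length, GC content, span and overlaps came from GENCODE canonical transcripts (GRCm39), and figures were drawn in Python 3.11.15.

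The members and lists were chosen with earlier results of these data known. Named genes were every member past 2-fold in any comparison, 9 sensors, factors and targets whatever their values, the highest and lowest of each role group, and the 3 highest and 3 lowest of the wider lists in each treatment among genes with at least 10 CPM in a library. Alternatives were other scalings, filters, pseudocounts, a 1.5-fold threshold, each column or library left out, and the 15 columns as samples.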

Additional observations from a re-analysis of the deposited data

Results flagged for a closer look

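For 5 of the 38 members (13.2%), 1 of the 4 treated libraries lay far from the other 3 on the log2 scale, by the ratio of its gap to the whole range (Dixon's ratio). In BLA-A, Cebpb was at 235 CPM against 10.9 to 14.3 in the others (ratio 0.913), Calr at 1050 against 194 to 235 (0.885), Canx at 850 against 607 to 633 (0.876) and Pdia4 at 228 against 65 to 80.1 (0.834). In BLU, Nupr1 was at 20.5 CPM against 32.8 to 34.5 (0.906), and its reads cannot be told apart from those of the opposite-strand Gm39087. Chance gives such a ratio in about 1 in 20 groups, and 9.64% of 17590 genes, or 10.9% of those with a mean of at least 10 CPM, had one in these libraries, so the share of members is near that of all genes. The 4 libraries are different treatments, not replicates.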

How the results depend on the processing

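Each condition was counted as 1 library, so no difference between 2 conditions has a replicate check, and batch and condition cannot be told apart. Members past 2-fold in BLA-A ranged from 7 to 10 over the settings other than the fold threshold, and in BLA-A against BLA from 9 to 11, both directions counted. With a pseudocount of 2 CPM, BLA had 1 (Vldlr lost) and BLU 0 (Sdf2l1 lost). At 1.5-fold there were 6 with BLA, 4 with BLU, 19 with BLA-A, 1 in BLU-A, 19 in BLA-A against BLA and 2 with BLU-A against BLU. With the trend on GC content and gene span removed, which was chosen after seeing the data, there were 4 with BLA, 0 with BLU and 1 with BLU-A. For 1.5-fold and for the removed trend, no share of all genes is given beside these counts. Leaving out each column in turn gave 9 to 10 in BLA-A (Creld2 lost without column 2) and the main count elsewhere.

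In the nanoparticle test, 4 members passed by total counts alone and 4 with no filter, and DESeq2 called 1; the cause was not tested. With the 15 columns taken as samples, 36 members passed against untreated and 37 in the nanoparticle test, where 80.4% and 84.3% of all genes passed. With the replicate block there were 36 and 37. The columns were read here as subsets of 1 library per condition, and same-numbered columns did not deviate together. In the test of 4 treated libraries, leaving out any 1 library gave 0 members, with 42 genes called without BLA-A and 3 without each of the others. Without BLA-A, 2 members were under 0.05 before adjustment and edgeR's lowest adjusted p was 0.311. Across settings, log2 fold changes of single members moved by less than their counting error in 1333 cases and by more in 187, and none past 2-fold changed sign.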
